A study of Nomascus leucogenys and Hoolock leuconedys and Nomascus gabriellae with 23 samples.

Results

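The comparison was between the LAVA insertions of 3 Hoolock leuconedys and those of 2 Symphalangus syndactylus, gibbons of separate genera. Members were chosen by a carrier rule, as every deposited site at which at least 1 of these 5 animals carried LAVA, which gave 4133 of 5490 sites. A missing call was read as not carried. A Hoolock set held the 1040 sites carried by all 3 Hoolock leuconedys and by neither Symphalangus syndactylus, and a Symphalangus set held the 641 sites carried by both Symphalangus syndactylus and by no Hoolock leuconedys.

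The study sequenced genomic DNA from the blood of 23 gibbons. Beside the 5 animals compared here, it covered 13 Nomascus animals (11 Nomascus leucogenys and 2 Nomascus gabriellae) and 5 Hylobates animals (2 Hylobates moloch and 1 each of Hylobates lar, Hylobates muelleri and Hylobates pileatus), whose calls were used to ask where else the sites of each set occur. Age and kinship are not known here, no treatment is named, and the species is the only grouping. The 5490 sites lie on 26 chromosomes, each site has at least 2 carriers among the 23 animals, and 0.712% of calls are missing.

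LAVA is a retrotransposon of gibbons assembled from pieces of other repeats, among them LINE and Alu sequence around a run of tandem repeats. Elements of this kind have no machinery of their own and are thought to be copied by LINE-1 proteins, which write the new copy from its 3′ end, so that many copies lack part of their 5′ end. A new copy passes to offspring like any other stretch of DNA, and a copy is carried by all members of a species only after it has spread through its population. A copy in an intron can lie in the direction of transcription (sense) or against it (antisense).

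Hoolock animals carried more LAVA sites than Symphalangus animals, and the difference lay in sites that the deposited table places at a single base. The 3 Hoolock animals carried 2709, 2829 and 2882 sites, against 2267 and 2274 in the 2 Symphalangus animals. Every Hoolock animal lay above both Symphalangus animals. At single-base sites the Hoolock animals carried 1727, 1845 and 1915, and the Symphalangus animals 1291 and 1272. At interval sites, whose position spans the whole element, the Hoolock animals carried 982, 984 and 967, and the Symphalangus animals 976 and 1002. The groups overlapped there. What sets single-base and interval sites apart is not stated in the sources used here, so equal counts of interval sites cannot be read as equal numbers of insertions. All 6 interval sites of the Hoolock set and all 13 of the Symphalangus set were carried by all 13 Nomascus animals. An exact two-sided permutation test of the difference in means gave p = 0.1 for all carried sites and for single-base sites, the smallest that 3 against 2 animals allow, and p = 0.5 for interval sites.

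**Figure D1:**
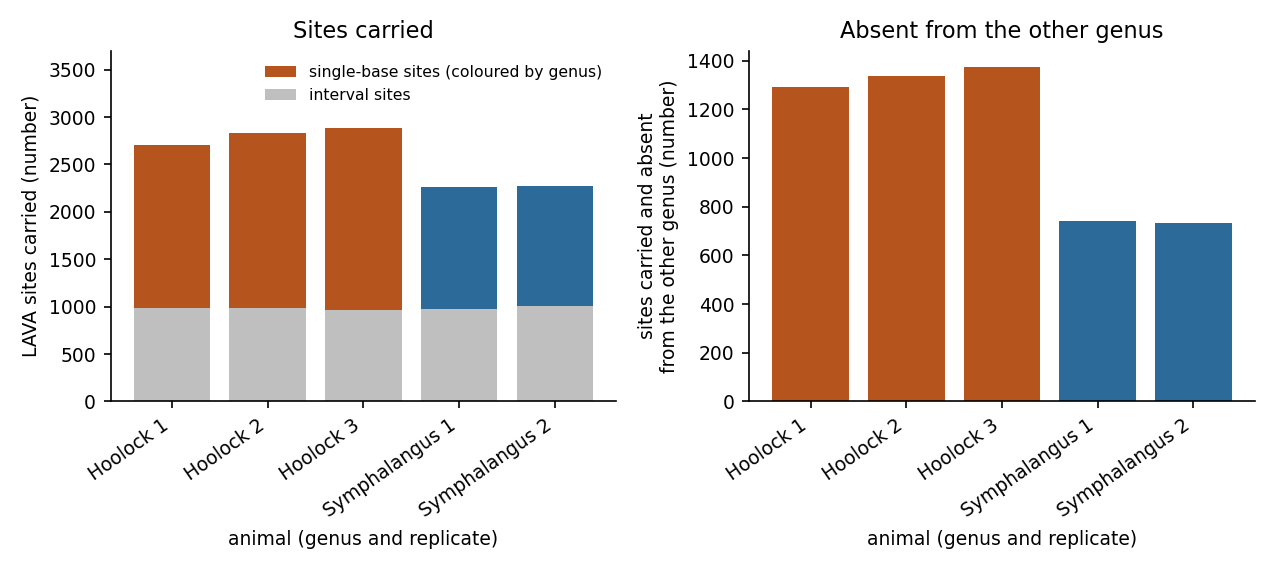
Left, LAVA sites carried by each animal (number), stacked as interval sites in grey and single-base sites in the colour of the genus; right, sites that an animal carried and that no animal of the other genus carried (number). The 3 Hoolock animals lie above the 2 Symphalangus animals in both panels, while their grey segments are of like height.

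The genera also lay apart in the sites that the other genus lacked. A Hoolock site had to be absent from 2 animals here and a Symphalangus site from 3. The size of this gap therefore cannot be set against that over all carried sites. The Hoolock animals carried 1293, 1336 and 1372 sites that neither Symphalangus animal carried, and the Symphalangus animals carried 742 and 731 sites that no Hoolock animal carried. The mean over the 3 Hoolock animals was 1334 ± 39.6 (SD), against 736.5 ± 7.78 (SD) over the 2 Symphalangus animals, a difference of 597 sites (exact permutation p = 0.1). At the 4133 sites the Hoolock animals had 110, 33 and 26 missing calls and the Symphalangus animals 33 and 37. Hoolock replicate 1, with the most missing calls, also had the fewest carried sites of its genus.

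Most of the 4133 sites were either carried by everyone or split cleanly between the genera. All 5 animals carried 1131 sites (27.4%), of which 920 were interval sites. The Hoolock set made up 25.2% of the 4133 sites and the Symphalangus set 15.5%, shares fixed by the rule. The remaining sites varied within a genus. Among 3301 sites carried by any Hoolock animal, 1044 varied among the 3 animals (31.6%, exact 95% binomial interval 30.0 to 33.2). Among 2542 sites carried by any Symphalangus animal, 543 differed between the 2 animals (21.4%, interval 19.8 to 23.0). These shares come from different numbers of animals and make no comparison. Intervals here and below are Clopper-Pearson intervals and cover counting error only.

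**Figure D2:**
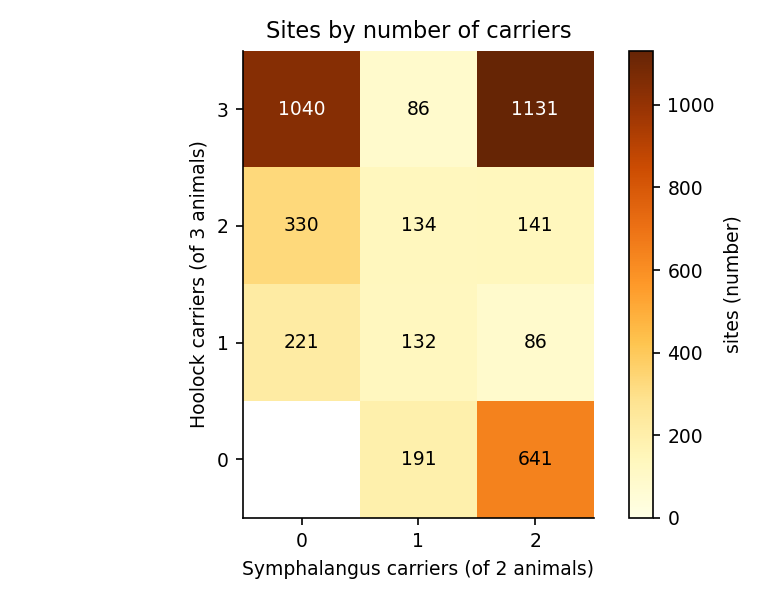
Number of sites by how many of the 3 Hoolock animals (rows) and of the 2 Symphalangus animals (columns) carried them; the cell with no carrier is left blank. The largest cells are the 1131 sites carried by all 5 animals, the 1040 of the Hoolock set at the top left and the 641 of the Symphalangus set at the bottom right.

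Within each genus the uneven sites were spread over its animals. Of sites absent from Symphalangus, 221 had a single Hoolock carrier, which was replicate 1 at 75, replicate 2 at 64 and replicate 3 at 82. A further 330 had 2 Hoolock carriers, and the animal lacking the insertion was replicate 1 at 152, replicate 2 at 98 and replicate 3 at 80. In 23 of the 152 the call of replicate 1 was missing, against 1 of 98 and 1 of 80 in the other two. Of sites absent from Hoolock, 101 were carried by Symphalangus replicate 1 alone and 90 by replicate 2 alone within the genus. Since a listed site has at least 2 carriers, every site with a single carrier in its genus and none in the other was also carried in Hylobates or Nomascus.

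Among sites absent from the other genus, short insertions were rarer where all animals of a genus carried the site than where it varied. In the absence of Symphalangus carriers, the median length was 1371 bp at sites with 3 Hoolock carriers, 1362 bp with 2 and 716 bp with 1. The share of sites under 540 bp was 14.0%, 30.3% and 46.6% in the same order. In the absence of Hoolock carriers, the median was 1367 bp with 2 Symphalangus carriers and 970 bp with 1, and 21.7% and 44.0% of these sites were under 540 bp. These values are descriptions with no test, and the sites with a single carrier are listed only if another genus carries them. The limit of 540 bp is the lower limit of interval sites in earlier results of these data.

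The first comparison of the 2 sets asked whether they differ in the length of their elements. Short elements made up a smaller share of the Hoolock set, and elements close to the full consensus made up a like share of both. Under 540 bp were 146 of 1040 sites in the Hoolock set (14.0%, interval 11.98 to 16.3) and 139 of 641 in the Symphalangus set (21.7%, interval 18.6 to 25.1). Fisher's exact test gave an adjusted p of 0.000174 over the 7 comparisons of shares made between the sets. The threshold was an adjusted p of 0.05, and the sites tested are insertions and not replicate animals. The median was 1371 bp in the Hoolock set and 1367 bp in the Symphalangus set, while the lower quartiles were 952 bp and 571 bp.

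Elements of at least 1500 bp made up 45.4% of the Hoolock set (472 of 1040) and 46.6% of the Symphalangus set (299 of 641), and this difference did not pass (adjusted p = 0.615, Fisher's exact test). Among elements of at least 540 bp alone, the shares were 52.8% in the Hoolock set and 59.6% in the Symphalangus set, and that difference passed (Fisher's exact test, adjusted p = 0.0278). The middle of the range, 540 to 1499 bp, held 40.6% of the Hoolock set and 31.7% of the Symphalangus set. In bins of 50 bp, the tallest of both sets began at 1800 bp, with 364 sites of the Hoolock set (35%) and 230 of the Symphalangus set (35.9%). The bin that begins at 450 bp held 55 sites of the Hoolock set (5.29%) and 77 of the Symphalangus set (12.01%).

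**Figure D3:**
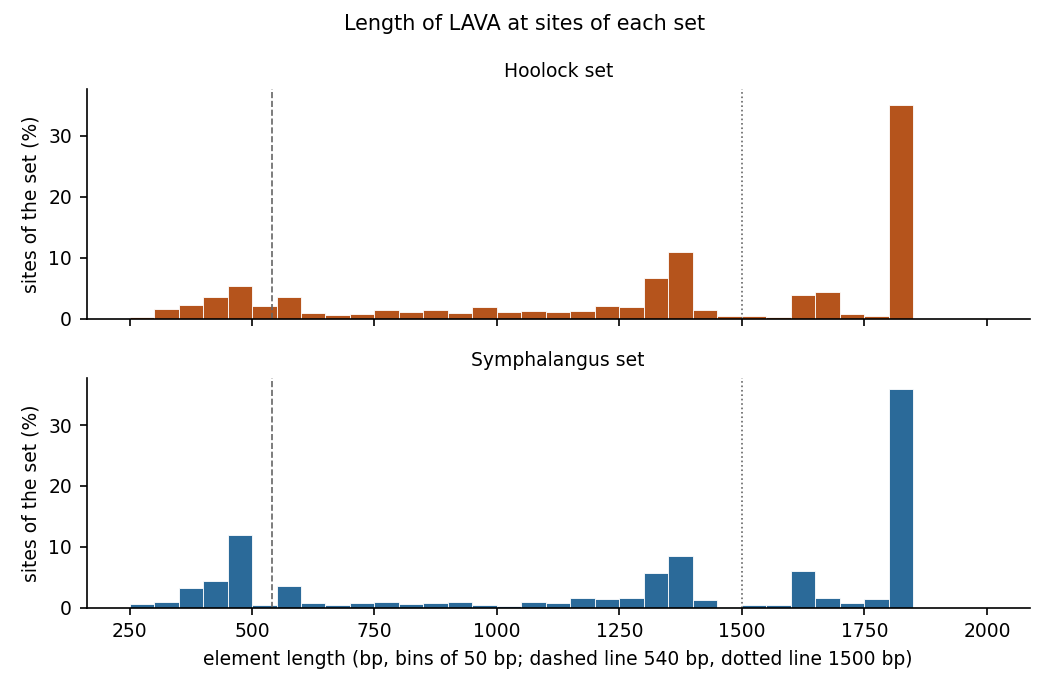
Share of each set's sites (%) by element length in bins of 50 bp, with the Hoolock set above and the Symphalangus set below; the dashed line stands at 540 bp and the dotted line at 1500 bp. Both sets peak in the bin that begins at 1800 bp, and the bin that begins at 450 bp is lower in the Hoolock set (5.29%) than in the Symphalangus set (12.01%).

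At all 4372 single-base sites the deposited length equals the end minus the start of the element on the LAVA consensus, so length and start position carry nearly the same information. A start near the beginning of the consensus marks a copy with most of its 5′ end. Starts at or below the median of all single-base sites, 501.5, made up 62.7% of the Hoolock set and 60.7% of the Symphalangus set (Fisher's exact test, adjusted p = 0.511). This difference turned round among sites of at least 540 bp, with 72.9% in the Hoolock set and 77.5% in the Symphalangus set, and did not pass there either (Fisher's exact test, adjusted p = 0.0888). In bins of 100 positions, the first held 35.5% of the Hoolock set and 37.4% of the Symphalangus set. The bin that begins at 1300, of copies that keep only the last stretch of the consensus, held 7.79% of the Hoolock set and 13.6% of the Symphalangus set.

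The second comparison asked where the insertions lie relative to genes. The Hoolock set lay less often in genes than the Symphalangus set. Intronic, exonic and untranslated classes together held 506 of 1040 sites of the Hoolock set (48.7%, interval 45.6 to 51.7) and 363 of 641 of the Symphalangus set (56.6%, interval 52.7 to 60.5). Fisher's exact test gave an adjusted p of 0.00271 over the 7 comparisons. Introns held 496 and 358 of these sites. Intergenic sequence held 483 sites of the Hoolock set (46.4%) and 245 of the Symphalangus set (38.2%). The promoter class held 28 sites of the Hoolock set (2.69%) and 14 of the Symphalangus set (2.18%), and the terminator class 23 (2.21%) and 19 (2.96%). Neither set had a site in the exonic class, which with 0 sites allows a share of up to 0.354% in the Hoolock set and 0.574% in the Symphalangus set (upper limits of the exact intervals).

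The same order of the genera was seen in each animal, over all sites it carried that the other genus lacked. The share in genes was 48.8%, 49.7% and 49.7% in the Hoolock animals, and 56.6% and 55.8% in the Symphalangus animals. The share under 540 bp was 18.5%, 18.3% and 18.7% in the Hoolock animals, and 25.1% and 24.1% in the Symphalangus animals. For both shares the genera did not overlap, and the exact permutation test gave p = 0.1, the smallest possible. Animals of a genus share most of these sites, so their values are not independent. Sites with a single carrier in the genus, which are listed only if another genus carries them, are among those counted.

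Intronic insertions of both sets lay mostly antisense to the gene, and the sets did not differ in this beyond counting error. In the Hoolock set 174 of 496 intronic sites were in sense orientation (35.1%, interval 30.9 to 39.5), and in the Symphalangus set 138 of 358 (38.5%, interval 33.5 to 43.8). Two-sided exact binomial tests against 50% gave p = 2.95e-11 in the Hoolock set and p = 1.72e-05 in the Symphalangus set. The sets differed by -3.47 percentage points, which did not pass (adjusted p = 0.439, Fisher's exact test). Intergenic sites were on the plus strand at 48.9% in the Hoolock set and 49.8% in the Symphalangus set. Promoter sites were in sense orientation at 17 of 28 in the Hoolock set and 8 of 14 in the Symphalangus set.

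In both sets the shares of short and of long elements were each higher among sense than among antisense intronic sites. Under 540 bp were 18.4% of sense and 10.9% of antisense intronic sites in the Hoolock set, and 24.6% of sense and 17.7% of antisense intronic sites in the Symphalangus set. The share of at least 1500 bp was 50% among sense and 46.6% among antisense intronic sites of the Hoolock set, and 50% and 43.2% in the Symphalangus set. No test was made of these shares.

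**Figure D4:**
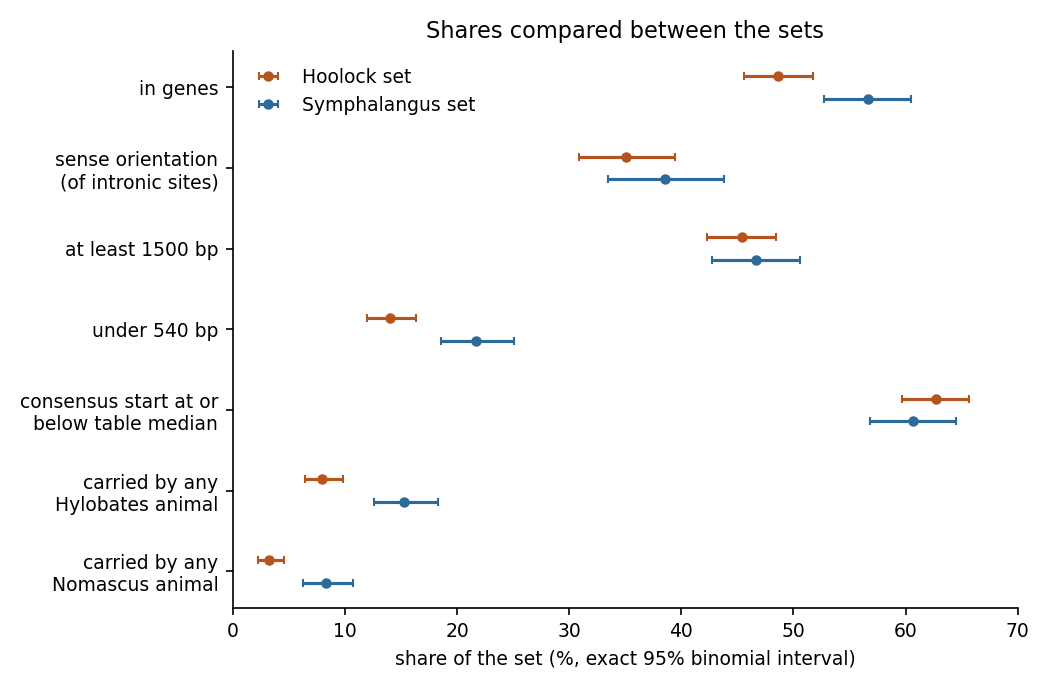
Share of each set (%) with each of the 7 properties compared, Hoolock set above Symphalangus set in each row; points are shares and bars exact 95% binomial intervals over sites. The shares in genes, under 540 bp and carried by Hylobates or Nomascus animals are lower in the Hoolock set.

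The third comparison asked in which other gibbons the sites of each set occur, from calls that the rule did not use. Sites of the Hoolock set were found outside the 2 genera less often than those of the Symphalangus set. At least 1 Hylobates animal carried 83 of 1040 sites of the Hoolock set (7.98%, interval 6.41 to 9.80) and 98 of 641 of the Symphalangus set (15.3%, interval 12.6 to 18.3; Fisher's exact test, adjusted p = 3.38e-05). At least 1 Nomascus animal carried 34 sites of the Hoolock set (3.27%, interval 2.27 to 4.54) and 53 of the Symphalangus set (8.27%, interval 6.25 to 10.7; Fisher's exact test, adjusted p = 4.27e-05).

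The order was the same in every animal of the other genera. Each of the 5 Hylobates animals carried 42 to 57 sites of the Hoolock set (4.04% to 5.48%) and 55 to 65 of the Symphalangus set (8.58% to 10.1%). Each of the 13 Nomascus animals carried 11 to 24 sites of the Hoolock set (1.06% to 2.31%) and 22 to 29 of the Symphalangus set (3.43% to 4.52%). The ranges of the shares did not overlap in either genus, but animals of a genus carry many of the same sites and are not independent. In Hoolock replicates 1 to 3, Hylobates animals carried 15.2%, 14.9% and 15.9% of the sites that Symphalangus lacked, and in the Symphalangus replicates 23.7% and 23.1% of the sites that Hoolock lacked. The exact permutation test gave p = 0.1. These shares include sites with a single carrier in the genus, which are listed only if Hylobates or Nomascus carries them. Such sites were 75 of 1293, 64 of 1336 and 82 of 1372 in Hoolock, and 101 of 742 and 90 of 731 in Symphalangus. The listing thus bears more on the Symphalangus shares, and the test is no separate support for the difference. Since a set asks for 3 carriers in Hoolock and 2 in Symphalangus, the comparison was repeated without each Hoolock animal, which leaves 2 against 2. The difference kept its direction and its side of the threshold each time. The differences in share were -7.31 percentage points for Hylobates and -5.00 for Nomascus, and leaving out a Symphalangus animal moved them most. Without Symphalangus replicate 1 they were -11.9 and -9.18, and without replicate 2 they were -12.5 and -9.72. A site then needs only 1 Symphalangus carrier, and such sites are listed only with a carrier elsewhere.

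Sites found outside the 2 genera were shorter than the others in both sets, a description with no test. All 5 Hylobates animals and no Nomascus animal carried 17 sites of the Hoolock set (1.63%) and 23 of the Symphalangus set (3.59%). All 13 Nomascus animals carried 6 sites of the Hoolock set and 13 of the Symphalangus set, and these were the interval sites of the sets. Sites carried outside the 2 genera had a median length of 996 bp in the Hoolock set (92 sites) and 711 bp in the Symphalangus set (115 sites). Sites carried in no other genus had a median of 1376.5 bp in the Hoolock set (948 sites) and 1449.5 bp in the Symphalangus set (526 sites).

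The interval sites of the sets included some in named genes. The 6 of the Hoolock set included an intronic element of 1372 bp in the zinc finger gene ZNF415 on chromosome 10 from 73410177 to 73411548, which no Hylobates animal carried. The 13 of the Symphalangus set included an intronic element of 711 bp in NRG1, which encodes a neuregulin growth factor, on chromosome 8 from 37790166 to 37790876. They also included intronic elements in SPTLC2, a subunit gene of the enzyme that starts sphingolipid synthesis, and SLC22A6, an organic anion transporter gene, and a promoter element in the autophagy protease gene ATG4C. All 5 Hylobates animals carried the NRG1 and ATG4C elements. These genes were named after their values were seen. All positions are 1-based and follow the deposited table, whose build is not known here.

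The fourth comparison asked whether the sets differ in their spread over chromosomes. The Hoolock set had more sites than the Symphalangus set on 25 of 26 chromosomes, and the ratio of the sets as a whole was 1.62. With Fisher's exact tests adjusted over the 26 chromosomes, 0% of them passed (lowest adjusted p = 0.236), while 5 had an unadjusted p under 0.05. The smallest unadjusted p was at chromosome 7b, with 37 sites of the Hoolock set (3.56%) and 10 of the Symphalangus set (1.56%). Chromosome 17 had 55 and 18 sites, chromosome 20 had 35 and 11 and chromosome 25 had 17 and 3. Chromosome 24 was the exception in direction, with 9 sites of the Hoolock set (0.865%) and 14 of the Symphalangus set (2.18%). The X chromosome held 40 sites of the Hoolock set (3.85%) and 16 of the Symphalangus set (2.50%).

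**Figure D5:**
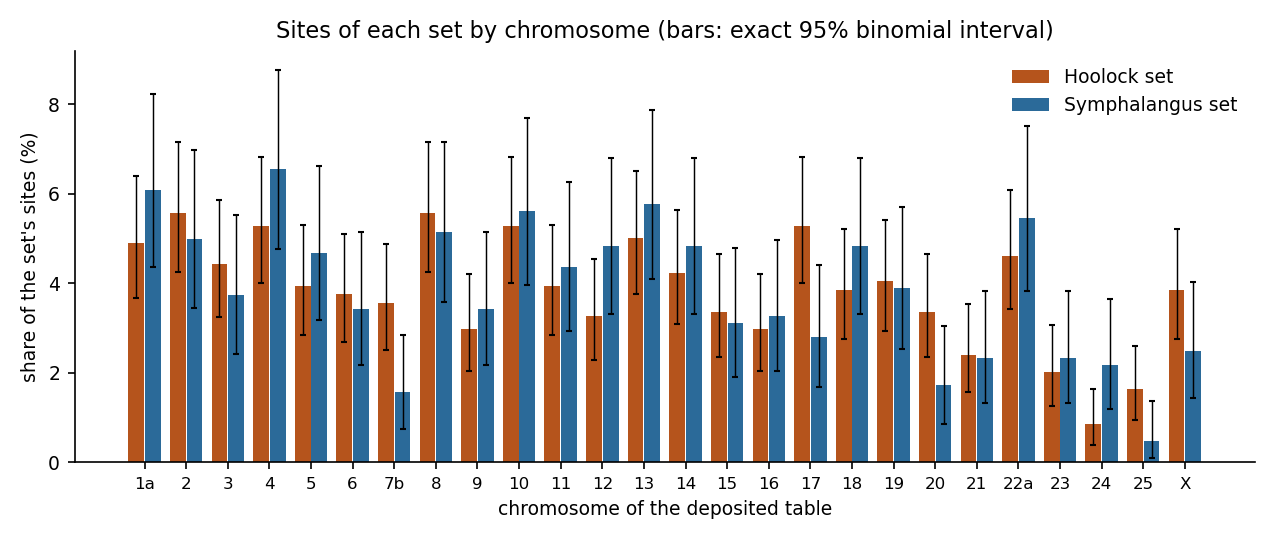
Share of each set's sites (%) on each chromosome of the deposited table, Hoolock set left of Symphalangus set; bars show exact 95% binomial intervals. Chromosome 24 is the one chromosome with more Symphalangus sites (14) than Hoolock sites (9), and no chromosome passed the adjusted threshold.

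Some genes held sites of both sets. Of the 1796 genes with a gene-body site carried by any of the 5 animals, 26.9% had a site of the Hoolock set and 19.8% one of the Symphalangus set, and 259 of the 1796 held 2 or more sites. The 506 gene-body sites of the Hoolock set lay in 484 genes and the 363 of the Symphalangus set in 355. Genes with sites of both sets numbered 23 of the 1796, which is 4.75% of the Hoolock genes and 6.48% of the Symphalangus genes. Only a gene with 2 or more sites can be among them, so these shares cannot be set against 26.9% and 19.8%. The size of the overlap was not tested. Of the 484 names, 356 were found in the RefSeq gene table of the assembly Asia_NLE_v1, and of the 355 names, 275; all of these are protein-coding there. No site of the Hoolock set lay within 1 kb of a site of the Symphalangus set, and the closest pair was 2369 bp apart.

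That closest pair lay in TMEM41B, which encodes a lipid scramblase of the endoplasmic reticulum. The Hoolock insertion of 733 bp was at 71103006 on chromosome 15 and the Symphalangus insertion of 1695 bp at 71100637, both in sense orientation. The next pair lay in FHIT, the gene at a well-known human fragile site, and both insertions were antisense and 452 bp long, at 83137617 in the Hoolock set and 83140888 in the Symphalangus set on chromosome 21. In DENND6A the Hoolock insertion was 759 bp and the Symphalangus insertion 1839 bp, 5855 bp apart and both antisense. The pairs thus combined short with long copies as well as copies of equal length.

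ATAD2B, a bromodomain ATPase gene on chromosome 19, had 2 insertions of the Hoolock set, at 23789579 (1360 bp, antisense) and 23811792 (1807 bp, sense), and 1 of the Symphalangus set at 23804985 (1837 bp, sense). EGLN3, which encodes a prolyl hydroxylase that marks hypoxia-inducible factor for breakdown, had the reverse, with 1 of the Hoolock set at 108641391 on chromosome 1a (1818 bp, antisense) and 2 of the Symphalangus set, at 108630637 (874 bp, antisense) and 108687931 (1340 bp, sense). CXADR, the coxsackievirus and adenovirus receptor gene, had an antisense Hoolock insertion of 1797 bp and a sense Symphalangus insertion of 1817 bp. In the histone chaperone gene NAP1L4 the Hoolock insertion was antisense and 1349 bp long, and the Symphalangus insertion sense and 1829 bp. In GMDS, an enzyme gene of GDP-fucose synthesis, the Hoolock insertion was sense (1346 bp) and the Symphalangus insertion antisense (1341 bp).

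Further genes with closest pairs up to 22679 bp apart were PLEKHM3, the mitochondrial ribosomal protein gene MRPL1, ST7-OT4 and LYPD6B. In MRPL1 the Symphalangus insertion of 391 bp was also carried by 2 Hylobates and 2 Nomascus animals. Over the 23 genes, the closest insertions of the 2 sets had the same orientation in 13 and different orientations in 10. Both were antisense in 10 and both sense in 3.

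Repeated insertion within a gene was seen in 21 of 484 genes of the Hoolock set and 8 of 355 of the Symphalangus set. It was seen in 259 of 1796 genes when sites carried by any of the 5 animals are counted. These counts come from 506, 363 and 2111 gene-body sites. Repeats become commoner as more sites are counted, so the counts make no comparison. TXNRD1, the gene of cytosolic thioredoxin reductase, had the most, with 3 antisense intronic insertions of the Hoolock set on chromosome 10. The one at 77700792 (757 bp) was also carried by 3 Nomascus animals, the one at 77712657 (1633 bp) by all 5 Hylobates animals and the one at 77724675 (1348 bp) by no other genus. ALDH1A2, which encodes an enzyme that makes retinoic acid, had an antisense insertion of 1707 bp and a sense insertion of 385 bp. ARFIP1, whose protein binds small GTPases of the ARF family, had antisense insertions of 1836 and 1839 bp on chromosome 7b.

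Other genes with 2 insertions of the Hoolock set were the neuronal adhesion gene CNTN4, the formin gene DIAPH2 on the X chromosome, the potassium channel subunit gene DPP6, C20orf194, and the clone-named genes AC092747.1 and AP002989.1. In CNTN4 and DPP6 the 2 insertions were in opposite orientations, and in DIAPH2 both were sense. The CNTN4 insertion of 1385 bp was also carried by 5 Nomascus animals and that of 1619 bp by 4 Hylobates animals. In DPP6, 2 Hylobates and 4 Nomascus animals carried the insertion of 1213 bp. The DIAPH2 insertion of 452 bp was also carried by 4 Hylobates and 9 Nomascus animals, and the one of 1346 bp by no other genus.

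In the Symphalangus set, SMC5, which encodes a core subunit of a chromosome maintenance complex related to cohesin, had sense insertions of 557 bp at 64888819 and 1330 bp at 64942977 on chromosome 1a. USP32, a deubiquitinase gene, had sense insertions of 451 and 452 bp on chromosome 14, the first also carried by 3 Hylobates and 3 Nomascus animals. COMMD1, a gene of copper balance, had an antisense insertion of 1351 bp and a sense insertion of 1655 bp. UQCC1, an assembly factor gene of respiratory complex III, had antisense insertions of 1837 and 1272 bp. CDRT1 had antisense insertions of 1537 and 1367 bp, and AC245100.1 sense insertions of 1818 and 736 bp. The non-coding RNA gene LINC01756 had 2 sense insertions, both 451 bp long, at 28173160 and 28175075 on chromosome 24.

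Insertions in deposited untranslated classes were few, 10 of 1040 in the Hoolock set and 5 of 641 in the Symphalangus set, and no Hylobates or Nomascus animal carried any of the 15 named here. In the Hoolock set the class of 3′ untranslated regions held insertions in the zinc finger gene ZNF726 (1695 bp, sense), the peroxidasin-like gene PXDNL (1837 bp, sense), the beta-defensin gene DEFB132 (1239 bp, sense) and VSIG10 (354 bp, antisense). LHFPL3-AS1, AC093206.1 and AC084824.5 were in the same class, and AL138737.1, AC008121.2 and AL772337.1 in the 5′ class. In the Symphalangus set, PSMD4, which encodes a ubiquitin receptor of the proteasome, had an antisense insertion of 1368 bp in its 3′ class and the cell surface glycoprotein gene THY1 a sense insertion of 1363 bp in its 5′ class. SNHG5 (1838 bp), GABPB1-AS1 (421 bp) and LINC01756 (451 bp) had sense insertions in the 3′ class. Names of non-coding RNA genes stand in these classes too, and the class cannot be read as an untranslated region there.

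The longest promoter insertions of each set were near full length. In the Hoolock set they were those of LSM6, a gene of the RNA-binding Lsm ring (1838 bp, sense), LINC00910 (1838 bp, sense), AC011451.3 (1839 bp, sense) and RNA5-8SP4 (1839 bp, antisense). In the Symphalangus set they were those of GINS1, a gene of the replicative helicase complex (1837 bp, sense), the phosphatase subunit gene PPP4C (1837 bp, antisense), the histone gene HIST1H4D (1837 bp, sense) and COMTD1 (1839 bp, sense). The PPP4C insertion was also carried by 3 Nomascus animals. How far a promoter reaches is not known here.

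The gene lists were read against the same 1796 genes and their shares of 26.9% for the Hoolock set and 19.8% for the Symphalangus set. Cilium and centrosome genes had 16 such genes of 83 listed, 8 with a site of the Hoolock set and 4 with one of the Symphalangus set. None of the 8 Hoolock insertions was sense, against 2 of the 4 Symphalangus insertions. Over all gene-body sites, 179 of 506 were sense in the Hoolock set and 142 of 363 in the Symphalangus set. IFT88, a gene of intraflagellar transport, was in both sets, with antisense insertions of 1823 bp in Hoolock and 1353 bp in Symphalangus. Each of these was also carried by 1 Hylobates animal. The centrosomal genes CDK5RAP2 (555 bp), CEP112 (1820 bp) and CEP164 (455 bp) held Hoolock insertions, and CEP89 (1626 bp) and the sperm flagellum gene CFAP47 (1837 bp) held Symphalangus insertions. The CEP164 insertion was also carried by 4 Hylobates animals.

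Genes of synaptic adhesion and axon guidance had 19 such genes of 68 listed, 7 with a site of the Hoolock set and 3 with one of the Symphalangus set. The netrin receptor gene DCC (1837 bp), the ephrin receptor gene EPHA3 (1361 bp) and the neuregulin receptor gene ERBB4 (1359 bp) held sense Hoolock insertions. CNTNAP2 (413 bp) and LRRTM4 (1808 bp) held sense Symphalangus insertions. DNA repair genes had 14 such genes of 106 listed, 2 in the Hoolock set and 5 in the Symphalangus set. POLN, a translesion polymerase gene, held an antisense Hoolock insertion of 1837 bp. ATRIP, a partner of the checkpoint kinase ATR, held a sense Symphalangus insertion of 1838 bp, and the helicase gene BRIP1 one of 1626 bp. MRE11 of the double-strand break sensor held an antisense Symphalangus insertion of 1839 bp, and ERCC8 a sense one of 1339 bp.

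Genes of cohesin, condensin and the centromere had 7 of 50 listed, 1 in the Hoolock set and 3 in the Symphalangus set. The Hoolock insertion was in the cohesin acetyltransferase gene ESCO1 (1273 bp, antisense), and 2 Hylobates and 4 Nomascus animals carried it. The 4 Symphalangus insertions were all sense, against 142 of 363 over all gene-body sites of that set, and 2 of the 4 were in the same gene, SMC5. The others were in the condensin gene NCAPH (1820 bp) and the cohesin regulator gene PDS5A (452 bp, also carried by 2 Hylobates animals). Spindle and kinetochore genes had 12 of 58 listed, 1 in the Hoolock set (KNTC1, 442 bp) and 2 in the Symphalangus set (CDC14B, 1830 bp, and CLASP2, 463 bp). All 5 Hylobates animals carried the CLASP2 insertion, and 3 Hylobates and 3 Nomascus animals the KNTC1 insertion. Genes of transposon silencing and the germline had 10 of 66 listed and 2 in each set. The small RNA processing gene DICER1 (1833 bp, sense) and the germ cell gene MORC1 (1356 bp, antisense) held Hoolock insertions. MPHOSPH8, a subunit gene of a complex that silences transposons (1837 bp, antisense), and the nucleotide hydrolase gene SAMHD1 (390 bp, sense) held Symphalangus insertions, and 5 Hylobates and 5 Nomascus animals carried the one in SAMHD1. The lists are small, no list was tested, and gene length was not taken into account.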

How the data were processed

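The authors' deposited file lists, for each LAVA site, its position, element length, place on the LAVA consensus and gene, per the file headers. It scores each of the 23 animals as 1 (carried), 0 (not carried) or NA (missing). The submitters' processing notes name BWA but no version. How insertions were called and filtered, and on which genome build, is not known here. No read numbers are given, so depth is unknown. Species came from the labels, and each column of calls was tied to 1 animal by name. Replicates were numbered in order of deposit.

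Shares were compared between the sets with two-sided Fisher's exact tests and values per animal with exact permutation tests (scipy 1.17.1, pandas 2.3.3), with Benjamini-Hochberg adjustment over 7 shares and over 26 chromosomes. The scripts were tested on simulated data with known answers. Fisher tests treat sites as independent. The rule for named genes took untranslated and exonic sites, genes with at least 2 sites of a set (up to 10), the 12 genes of both sets with the closest sites, up to 6 genes per list and the 4 longest promoter sites per set. The members, the 6 lists and the length limits were chosen with earlier results of these data known. Gene names were looked up in RefSeq for gene type only. Sequence of the insertions was not analysed here. One named site is not reported here.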

Additional observations from a re-analysis of the deposited data

How the results depend on the processing

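The shares in genes, under 540 bp, and carried by Hylobates or Nomascus animals kept their direction and passed the threshold under every alternative run for them, including single-base sites only, no missing calls, carriers counted from 1 animal, and leaving out each of the 5 animals. The difference in genes ranged from -8.49 to -6.17 percentage points, that under 540 bp from -9.92 to -4.87, that for Hylobates from -12.5 to -5.28 and that for Nomascus from -9.72 to -3.26. Counting from 1 carrier or leaving out a Symphalangus animal adds sites listed only because Hylobates or Nomascus carries them. In those runs the differences for Hylobates and Nomascus are partly set by the listing and give no separate support. The ends -12.5 and -9.72 come from such a run. Sites with a single carrier in the genus and none in the other were also often short. Under 540 bp were 46.6% of those in Hoolock and 44.0% of those in Symphalangus. Both ends of the range under 540 bp, -9.92 and -4.87, come from runs that add such sites. Those runs give no separate support for that difference either. When only sites of no other genus were compared, an alternative chosen after seeing the data, the share under 540 bp was 11.7% in the Hoolock set and 17.3% in the Symphalangus set (Fisher's exact test, adjusted p = 0.00847). The difference in long elements turned to 4.31 percentage points with a limit of 1000 bp, and was -6.77 and past the threshold among sites of at least 540 bp. The difference in consensus start turned to -4.56 among sites of at least 540 bp and to -0.59 among sites of no other genus. Carriers counted from 1 animal gave 1591 sites in the Hoolock set and 832 in the Symphalangus set. Leaving out an animal gave 1083 to 1192 sites in the Hoolock set and 662 to 742 in the Symphalangus set, and some sites are then listed only because another genus carries them. No 2 sites of the opposite sides lay within 100 bp, so leaving out such sites changed no value. No paired analysis was possible because the replicate numbers only follow the order of deposit. The number of animals limits every test over animals, and unknown depth limits all counts of carried sites.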

Other observations

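Some start positions on the LAVA consensus were uneven between the genera. The 4 given here were picked for the largest gaps in share between the sets among positions with at least 25 single-base sites, so their counts have no test. A start at position 143 was recorded at 48 single-base sites on 22 chromosomes. The 3 Hoolock animals carried 30, 34 and 33 of these sites and both Symphalangus animals 2 each. The Hoolock set held 27 of them, among them the ZNF726 insertion, and the Symphalangus set 1, the TMEM41B insertion. Hoolock alone among the 4 genera carried 34. The 5 Hylobates animals carried 3 to 10 and the 13 Nomascus animals 0 to 1.

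Starts at the remaining positions took a larger share of the Symphalangus set. Position 1, a copy that is nearly whole at its 5′ end, was recorded at 444 sites. The Hoolock animals carried 192, 195 and 207 of them and the Symphalangus animals 138 and 142, while the Hoolock set held 147 (14.1%) and the Symphalangus set 112 (17.5%). Position 212 was recorded at 286 sites, of which the Hoolock animals carried 95, 105 and 121 and the Symphalangus animals 109 and 114. The genera overlapped in number there, and the Hoolock set held 10 and the Symphalangus set 23. Position 1376 was recorded at 163 sites, of which the Hoolock animals carried 31, 36 and 32 and the Symphalangus animals 43 and 44. The Hoolock set held 6 of these and the Symphalangus set 20. The consensus is not annotated in the table, so the part of the element at these positions is not named here.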
